A study of Homo sapiens with 18 samples.

Results

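The sirtuins SIRT1 to SIRT7 are represented on the HG-U133 Plus 2.0 array by 17 probe sets, and these gave between 1 and 6 readings of each gene on every scan. A probe set is a group of oligonucleotide probes whose intensities are combined into 1 value. The members were chosen by gene name, as all probe sets that the annotation of the array assigns to SIRT1, SIRT2, SIRT3, SIRT4, SIRT5, SIRT6 or SIRT7 and to no other gene. They are 17 of 54675 probe sets and 7 of 19775 genes. SIRT5 has 6 of them, SIRT3 has 3, SIRT2, SIRT4 and SIRT6 have 2 each, and SIRT1 and SIRT7 have 1 each. A probe set with several gene symbols named a sirtuin in 0 cases. The family was selected on an earlier reading of these data in which SIRT5 differed between the staining series, so that its values between the series are given as a description without a test.

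Sirtuins are enzymes that remove acyl groups from lysine residues of proteins and consume NAD+ in doing so, which ties their activity to the metabolic state of the cell. SIRT1, SIRT6 and SIRT7 act mainly in the nucleus, with SIRT7 concentrated in the nucleolus. SIRT2 is mostly cytosolic and deacetylates tubulin, and SIRT3, SIRT4 and SIRT5 reside in mitochondria. SIRT3 is the main mitochondrial deacetylase, SIRT4 has weak deacetylase activity and restrains glutamate dehydrogenase, and SIRT5 removes succinyl, malonyl and glutaryl groups.

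All signals come from 1 RNA preparation of untreated cells of FTC-133, an established human line of follicular thyroid carcinoma, hybridized in portions to 3 arrays (A, B and C). For the first series they were stained and then scanned after 0, 2, 7 and 17 additional stringent washing cycles (A1 to A4 and B1 to B4), where stringent washing is a low-salt step that strips weakly bound RNA from the probes. Array A received 0, array B 2 and array C 6 stringent cycles before the first staining, and C was scanned without additional cycles (C1). The same arrays were then stained again, which is called re-labelling, and scanned in the second series at the same additional cycles (A5 to A8, B5 to B8 and C2), with 0 cycles on A, 2 on B and 6 on C before the staining. Total cycles thus ran from 0 to 34 on array A, from 2 to 38 on array B and from 6 to 12 on array C. There was no treated group and no separate culture, so every spread given here is technical, and scans of 1 array are repeated readings of the same hybridization.

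The values are MAS5 signals on a linear scale without unit, scaled by the authors to an equal trimmed mean, which lay between 250.02 and 250.06 on the 18 scans. The median signal of all probe sets ran from 51.0 on C1 to 136 on A1, and it was higher on array A than on array B at every step. The signals carry no counts, and the number of arrays limits their precision. Of the thyroid markers PAX8 and NKX2-1, transcription factors of thyroid development, had signals of 757 and 766 on C1, at the 89.4th and 89.5th percentile of all probe sets, whereas TG (thyroglobulin) and TSHR (the thyrotropin receptor) lay at 40.7 and 38.9, below the median of that scan. KRT18, a keratin of simple epithelia, had a signal of 1408, PTPRC of leukocytes 24.6 and ALB of hepatocytes 39.0 on the same scan. Other epithelial markers were mixed there, with KRT8 at 514, EPCAM at 214, CDH1 at 32.3 and KRT19 at 4.59. The mesenchymal markers VIM, FN1 and CDH2 had 18362, 21881 and 1916, and the blood marker HBB had 107. Signals of different probe sets depend on probe affinity, so a brighter probe set does not show a more abundant transcript.

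SIRT1, the nuclear deacetylase of p53 and FOXO factors, was read by the probe set 218878_s_at. Its signals on array A were 561, 319, 387 and 479 on A1 to A4 and 550.2, 550.3, 552 and 449.5 on A5 to A8. Array B gave 475.5, 394, 346 and 313 on B1 to B4 and 613, 516, 424 and 439 on B5 to B8, and array C gave 308 on C1 and 413 on C2. Thus SIRT1 stayed between the 79.1st and the 88.1st percentile of all probe sets on every scan, with a highest signal 1.99 times the lowest. On array B the values were lower at each additional step of the first series, whereas on array A its lowest value was that after 2 cycles.

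SIRT7, a nucleolar deacylase linked to transcription of ribosomal RNA genes, was similarly steady in signals as deposited with the probe set 218797_s_at. Its signal was 451 on A1 and lay between 249.6 and 299.9 on the other 7 scans of array A. On array B it ran from 225 on B4 to 435 on B8, and on C1 and C2 it was 347 and 376. The highest signal was 2.00 times the lowest over the 18 scans. The SD of the log2 signal of SIRT7 over these scans was 0.27 as deposited and 0.53 with each scan centred on its median. Centred in this way, the SD was 0.42 for SIRT1 and 0.48 for 219613_s_at of SIRT6.

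SIRT6, a chromatin-bound deacylase of histone H3 with a role in DNA repair, was read by 219613_s_at and 233179_x_at. An ending _s_at marks probes shared by several transcripts, and _x_at marks probes that can bind other sequences as well. The probe set 219613_s_at gave 496, 312.5, 129.8 and 104 on A1 to A4 but 157, 141, 146 and 189 on B1 to B4. It was 325, 165, 195 and 178 on A5 to A8, 151, 176, 151 and 182 on B5 to B8, and 69.8 and 95.4 on C1 and C2. The order of signals from A1 down to A4 therefore had no counterpart on array B, where the last scan was the highest of its series. The probe set 233179_x_at gave 228, 298, 157 and 84.5 on A1 to A4 and 274, 125, 90.6 and 216 on B1 to B4. Its signals in the second series lay between 236 and 303 on array A and between 140.5 and 208 on array B. Which of the SIRT6 probe sets was the brighter changed between scans, with 233179_x_at above the other on 10 of 18.

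SIRT2 was read by 220605_s_at at 269 to 553 and by 1558331_at at 4.63 to 76.5. The brighter one gave 288, 315, 269 and 347 on A1 to A4 and 414, 455, 485 and 377 on B1 to B4. Re-stained, it gave 393, 371, 553 and 468 on A5 to A8, and 383, 336, 414 and 400.4 on B5 to B8, with 459.6 on C1 and 404 on C2. Its SD over the 18 scans as deposited, 0.27 on the log2 scale, was the smallest among the 17 probe sets. With each scan centred on its median this SD was 0.61, and the smallest was 0.26, that of SIRT3 49327_at. The dim reading of SIRT2 gave 63.5, 18.4, 30.4 and 4.63 on A1 to A4 and 4.87, 12.5, 15.8 and 51.4 on B1 to B4. Its ends thus lay in opposite order on the 2 arrays. It was the lower of the SIRT2 readings on all 18 scans.

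**Figure D1:**
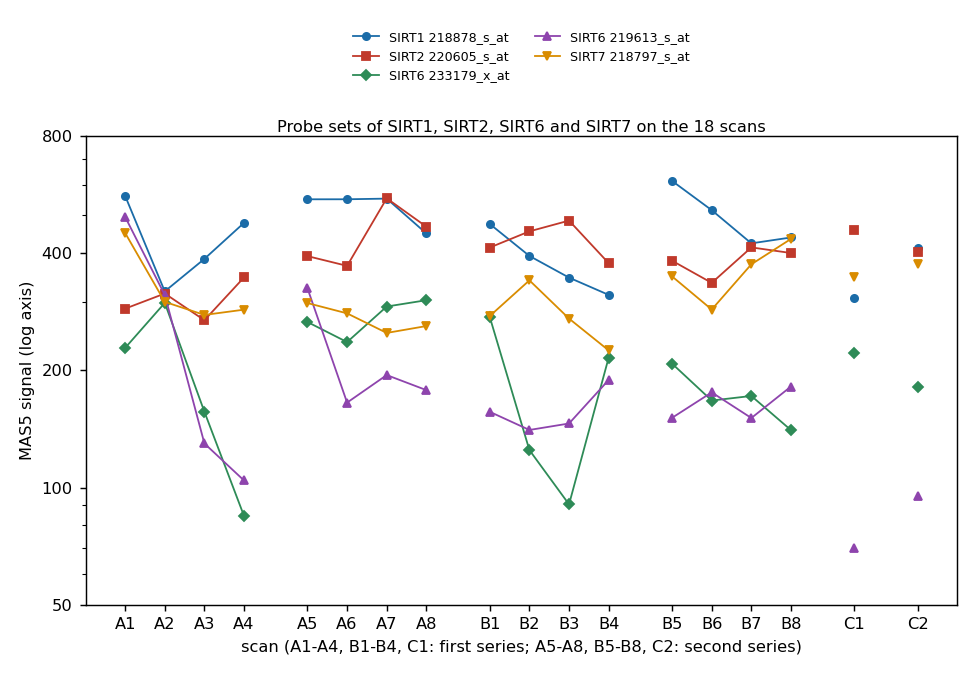
MAS5 signal (log axis) of the probe sets of SIRT1, SIRT6 and SIRT7 and of the brighter probe set of SIRT2 on each scan; each point is 1 scan, and lines join scans of 1 array and series. SIRT1, SIRT2 and SIRT7 stayed within a range of 2.06-fold, while 219613_s_at of SIRT6 ran from 69.8 on C1 to 496 on A1.

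Of the mitochondrial members, SIRT3 had 3 probe sets that differed in both level and pattern. The brightest, 49327_at, gave 401, 355, 293 and 389 on A1 to A4 and 328, 361, 373 and 264 on A5 to A8. On array B it was lower, with 246, 188, 172 and 199.7 on B1 to B4 and 257, 259, 239 and 268 on B5 to B8, so the arrays overlapped only at A8 and B8. The probe set 221562_s_at had the opposite order, with a median of 72.8 on array A and of 172 on array B. Its signal was 14.6 on A7 and 245 on B6, a range of 16.8-fold. The third, 221913_at, lay between 15.5 on C1 and 124 on B7. It is annotated to the same sequence entry as 49327_at and was lower on all 18 scans.

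SIRT4 gave low signals on C1 in both of its readings. The probe set 220047_at gave 37.2, 26.3, 46.5 and 10.2 on A1 to A4, 37.2, 28.9, 33.4 and 5.79 on B1 to B4 and 6.54 on C1. After re-labelling it gave 66.9, 168, 64.6 and 102 on A5 to A8, which is above every scan of the first series. On B5 to B8 it gave 19.4, 12.4, 9.80 and 19.6, and on C2 58.9. Its percentile among all probe sets was 13.0 on C1, but 66.9 on A6, 53.9 on A8 and 50.2 on C2. Its 29.0-fold range was the widest of the 17 probe sets. The other probe set, 222248_s_at, ran from 4.66 on C1 to 76.4 on A7 and lay at the 8.15th percentile of all probe sets on C1.

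SIRT5 has the most readings in the family, and they did not follow a common course. The probe set 219185_at, annotated to a RefSeq transcript of the gene, was the brightest on C1 with 179 and had signals of 282, 243, 265 and 187 on A1 to A4, 176, 169, 167 and 227 on B1 to B4, and between 123 and 265 in the second series. Its place among all probe sets stayed between the 64.1st and the 79.3rd percentile. The probe set 222080_s_at gave 99.9, 39.1, 108 and 37.1 on A1 to A4 and 257, 261, 228 and 231 on A5 to A8. On array B it gave 15.9, 38.9, 26.5 and 15.7 on B1 to B4 and 54.6, 123, 41.5 and 33.0 on B5 to B8, and on array C 16.3 and 89.0. On arrays A and C the second series thus lay wholly above the first, and on array B the ranges overlapped. On A5, A7 and A8 this probe set exceeded 219185_at, which was the brighter of the pair on the other 15 scans.

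The other 4 probe sets of SIRT5 were dim on C1, at 7.75 to 21.6. Of these, 1569938_at gave 165, 7.10, 8.03 and 62.6 on A1 to A4 and 153, 114, 94.4 and 100.2 on A5 to A8, and A1 stood far above A2 and A3. On array B it gave 9.00, 12.3, 21.1 and 35.5 on B1 to B4 and 43.7, 60.3, 44.2 and 48.4 on B5 to B8, with every value of the second series above the first. The probe set 222081_at shares its annotated sequence entry with 222080_s_at. It gave 23.7 to 58.2 on array A and 4.89 to 17.2 on array B and did not follow its partner between the series. The probe set 221010_s_at, annotated to another RefSeq transcript of SIRT5, ran from 9.59 on B3 to 112 on A4, and 229112_at from 7.75 on C1 to 66.2 on A5.

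**Figure D2:**
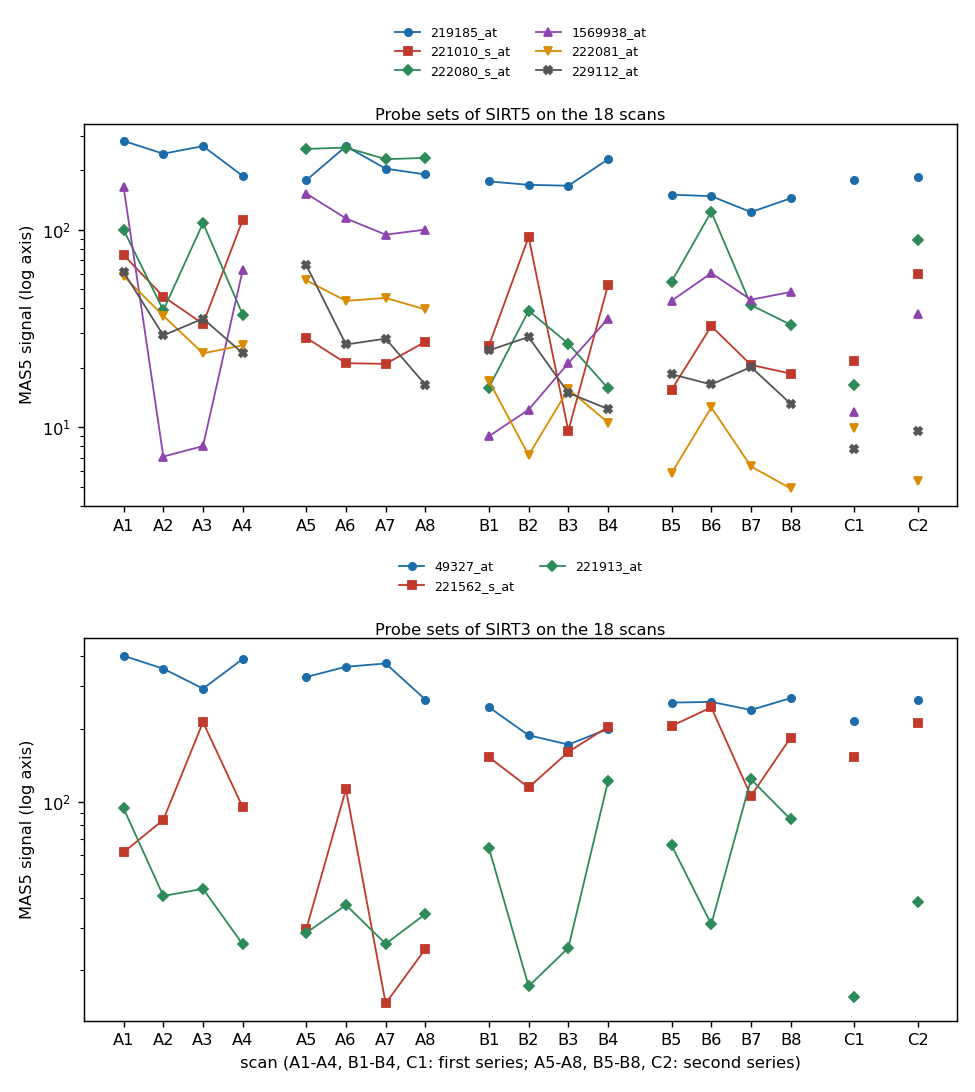
MAS5 signal (log axis) of the 6 probe sets of SIRT5 (upper panel) and the 3 of SIRT3 (lower panel) on each scan; each point is 1 scan, and lines join scans of 1 array and series. The brightest readings, 219185_at and 49327_at, had ranges of 2.29-fold and 2.33-fold. The probe set 222080_s_at of SIRT5 stood at 228 to 261 on A5 to A8 against 37.1 to 108 on A1 to A4.

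Readings of 1 gene were therefore compared pair by pair. The 7 genes give 21 pairs of probe sets, of which 15 belong to SIRT5. In 6 pairs 1 probe set lay above the other on all 18 scans, and these were the SIRT2 pair, 49327_at over 221913_at of SIRT3, and 219185_at of SIRT5 over each of 221010_s_at, 1569938_at, 222081_at and 229112_at. The change from 0 to 17 additional cycles had the same sign in both members of a pair in all 4 runs (2 arrays in 2 series) for 4 of the 21 pairs, in 3 runs for 1 pair, in 2 runs for 8 pairs and in 1 run for 8 pairs. The 4 pairs, 19.0% of the 21, were the readings of SIRT4 and the 3 pairs among 222080_s_at, 222081_at and 229112_at of SIRT5, and among 42459 pairs of probe sets of all genes 5940 did so (14%). After quantile normalization 0 of the 21 pairs agreed in all 4 runs and 8 in 3 runs. No count over all genes is given for quantile normalization. With each change taken minus the median change of its run, a scale chosen after seeing the data, 2 of the 21 agreed in all 4. On that scale 4690 of the 42459 pairs of all genes did so, and the share of the sirtuin pairs was not above theirs. Of the 17 probe sets, 7 are annotated to a RefSeq transcript, and 5 of these had a signal of 50 or more on C1. Of the 10 annotated to other sequence entries or to none, 3 did. No share over all probe sets of each kind is given here, and the median signal on C1 was 51.0.

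Washing for 17 additional cycles moved 0 of the 17 sirtuin probe sets past the threshold in either series. The largest change was that of SIRT4 220047_at, whose signal was lower after 17 cycles on both arrays of the first series, by log2 changes of -1.87 on A and -2.69 on B. SIRT5 229112_at was lower on both arrays in both series. By limma over all probe sets, with the array as a block and a Benjamini-Hochberg adjusted p threshold of 0.05, 0 of 54675 probe sets passed in the first series and 0 in the second (0.0% in each). A change is negative where the signal is lower after 17 cycles, and because scans are scaled to an equal mean it has to be read against the median change of all probe sets, which was -0.45 in the first and -0.24 in the second series.

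At an unadjusted p under 0.05, 2 of the 17 were lower in the first series and 0 higher, beside 13.9% lower and 3.5% higher of all probe sets. They were SIRT4 220047_at with a log2 change of -2.28 (SE 0.36, limma adjusted p = 0.192) and SIRT5 229112_at with -1.18 (SE 0.42, limma adjusted p = 0.274). In the second series 1 was lower and 0 higher, beside 11.6% and 2.55% of all probe sets, and this was again 229112_at with -1.26 (SE 0.43, limma adjusted p = 0.342). Over the 17 probe sets the changes of the first series ran from -2.28 to 0.80 with a median of -0.47, and 9 lay below and 8 above the median of all probe sets. Those of the second series ran from -1.26 to 0.66 with a median of -0.12, and 5 lay below and 12 above it.

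SIRT4 220047_at is also the brighter reading of its gene on C1, and in the second series its change was 0.31 (SE 0.50). For the brightest readings of the other genes no change passed the threshold, and SIRT1 changed by -0.42 (SE 0.33) in the first and -0.39 (SE 0.21) in the second series, with limma adjusted p of 0.536 and 0.442. For SIRT2 220605_s_at the changes were 0.07 (SE 0.31) and 0.16 (SE 0.19), and for SIRT3 49327_at they were -0.17 (SE 0.27) and -0.12 (SE 0.23). SIRT5 219185_at had changes of -0.11 (SE 0.36) and 0.02 (SE 0.23). SIRT6 233179_x_at had -0.89 (SE 0.70) and -0.19 (SE 0.25), and SIRT7 had -0.47 (SE 0.34) and 0.06 (SE 0.25). The direction of such small values depends on the scaling of the scans. When each scan was centred on its median, the change of SIRT1 in the first series became 0.038, that of SIRT3 49327_at 0.28 and that of SIRT5 219185_at 0.35.

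Arrays A and B are the only repeats of the washing contrast, and they often differed in sign. In the first series 11 of the 17 probe sets changed in the same direction on both arrays, and in the second series 9 did, beside 59.2% and 60.2% of all probe sets. The signal after 17 cycles was the lower one in all 4 runs for 4 of the 17, namely SIRT1 218878_s_at and 222080_s_at, 222081_at and 229112_at of SIRT5, beside 24.8% of all probe sets. It was the higher one in all 4 runs for 0 of the 17, beside 7.39%. Minus the median change of each run, 222081_at and 229112_at were the 2 that stayed lower in all 4 runs (11.6% of all), and 3 were higher in all 4 (15.0% of all), SIRT2 220605_s_at and 219185_at and 221010_s_at of SIRT5. The widest disagreement between the arrays was that of SIRT2 1558331_at, with log2 changes of -3.78 on A and 3.40 on B in the first series. SIRT5 1569938_at followed with -1.39 on A and 1.98 on B, then SIRT3 221913_at with -1.87 and 0.92 and SIRT6 219613_s_at with -2.25 and 0.27.

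**Figure D3:**
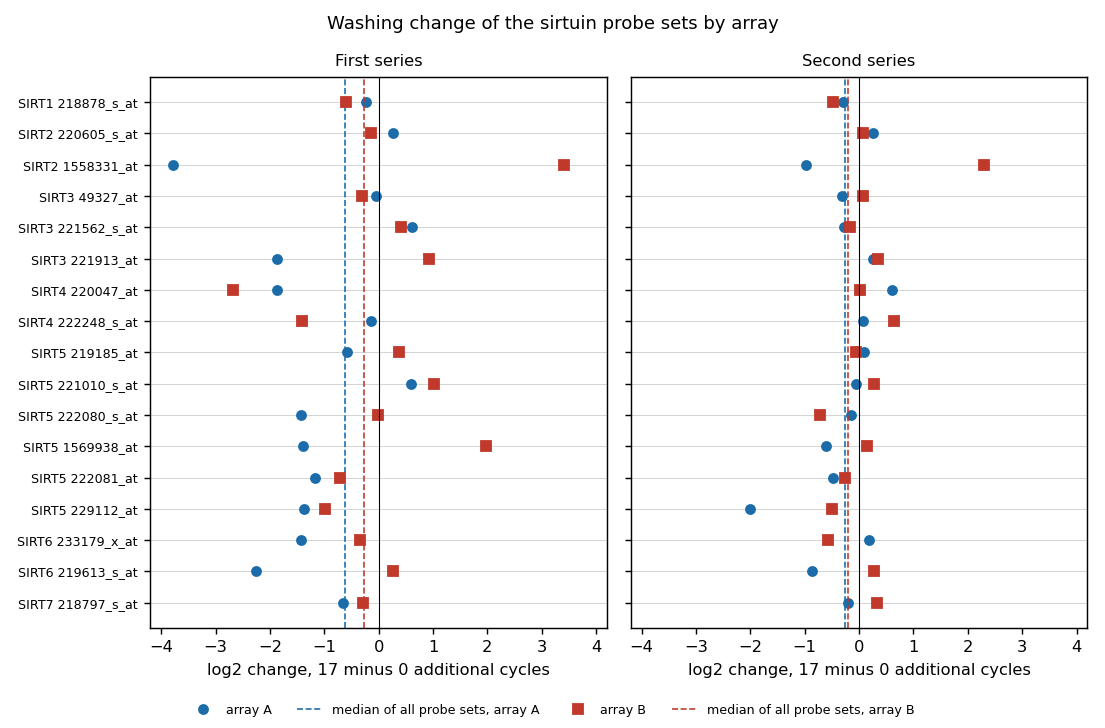
Log2 change of signal from 0 to 17 additional washing cycles (horizontal axis) for each of the 17 sirtuin probe sets, in the first (left) and second series (right); circles are array A, squares array B, and dashed lines the median of all probe sets on each array. The arrays lie far apart for 1558331_at of SIRT2 (-3.78 and 3.40), whereas 229112_at of SIRT5 lies below 0 in all 4 runs.

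The washing change itself was also compared between the series, by limma with an interaction of series and cycles over the 16 scans of arrays A and B. It passed for 0 of 54675 probe sets (0.0%) and 0 of the 17 sirtuin probe sets. At an unadjusted p under 0.05 it was higher in the second series for 1 of the 17 and lower for 0, beside 4.91% and 2.58% of all probe sets. The 1 was SIRT4 220047_at, with a difference of 2.58 log2 units (SE 0.64, limma adjusted p = 0.579). The median difference was 0.28 over the 17 and 0.12 over all probe sets.

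Re-labelling was compared at equal additional cycles in 9 pairs of scans, and the readings of SIRT5 differed from each other in it. Total cycles also differed within pairs, with 0 on A1 and 17 on A5, and 6 on C1 and 12 on C2. The second staining and the added washing and scanning therefore cannot be told apart here. The probe set 222080_s_at was higher in the second series in 9 of 9 pairs, on average by 1.71 log2 units or 3.28-fold (SD 0.75 over pairs), with pairs from 1.57-fold to 6.68-fold. The probe set 1569938_at was higher in 8 of 9 pairs, on average by 1.76 log2 units or 3.40-fold (SD 1.40), with A1 and A5 as the exception. The other 4 readings of SIRT5 had means below 0, at -0.26 (SD 0.30) for 219185_at, -0.71 (SD 1.21) for 221010_s_at, -0.26 (SD 0.97) for 222081_at and -0.14 (SD 0.41) for 229112_at. The brightest reading of the gene was thus higher in the second series in only 3 of 9 pairs.

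Among the other sirtuins SIRT1 was higher in the second series in 7 of 9 pairs, with a mean of 0.35 log2 units (SD 0.27). The readings of SIRT2 and SIRT4 that were dim on C1 had means of 0.92 to 0.96, with an SD of 1.21 to 1.94 that exceeds them. SIRT2 1558331_at was higher in 8 of 9 pairs, SIRT4 222248_s_at in 7 and SIRT4 220047_at in 6. SIRT3 221562_s_at had a mean of -0.58 (SD 1.54), and its lowest pair, A3 and A7, stood at -3.87. The remaining means lay between 0.06 and 0.30, for 220605_s_at of SIRT2, 49327_at and 221913_at of SIRT3, both readings of SIRT6 and SIRT7. Of these, 49327_at was higher in 7 of 9 pairs and the others in 4 or 5. The median of all probe sets was -0.02. Of the 17, 12 had a mean above 0 and 5 below when scans were scaled as deposited, centred on their median or quantile-normalized. The counts were 15 and 2 when scans were anchored on the 100 brightest probe sets, where the median of all probe sets was 0.40. No share of all probe sets above 0 is given here. Of the 17, 6 are readings of SIRT5, which was chosen with this contrast known.

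In the limma fit with the pair of scans as a block, 161 probe sets passed as higher (0.294% of all) and 296 as lower (0.541%) in the second series. With the array as the unit, that is 3 arrays in place of 9 pairs of repeated scans, 0 passed. Since SIRT5 was chosen with this contrast known, no call is given for the 17 sirtuin probe sets. Higher calls made up 35.2% of all calls, against 46.7% with scans centred on the median, 50.7% after quantile normalization and 95.3% with anchored scans. The mean change of 222080_s_at lay between 1.59 and 1.85 when each pair in turn was left out. This range describes repeated scans of 3 arrays for a gene chosen with this contrast known, and is no test of the change. A higher value in all 9 pairs, as in 222080_s_at, occurred in 1.72% of all probe sets, and a lower value in all 9, which 0 of the 17 showed, in 2.2%. These shares stand beside the counts as a description.

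**Figure D4:**
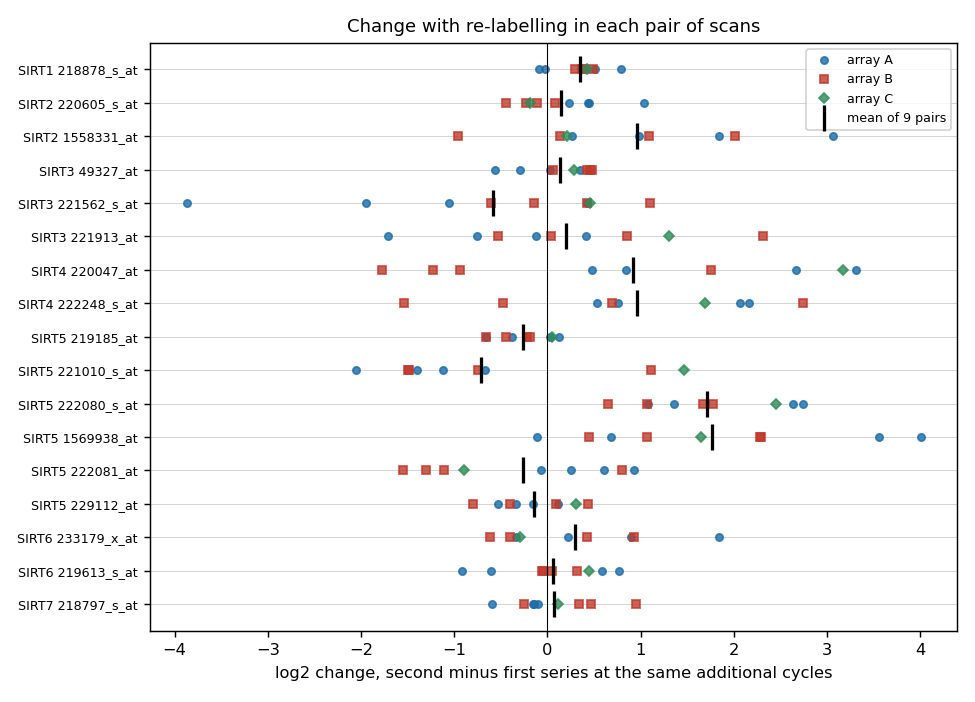
Log2 change of signal from the first to the second series in each of 9 pairs of scans of the same array at the same additional cycles, for the 17 sirtuin probe sets; circles, squares and diamonds are arrays A, B and C, and vertical bars the mean of 9 pairs. All pairs of 222080_s_at lie above 0, and the means of SIRT5 run from -0.71 to 1.76.

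The arrays also differed in level for parts of the family. In signals as deposited, all 8 scans of array A lay above all 8 of array B for 1 of the 17 probe sets. It was SIRT5 222081_at, beside 10.4% of all probe sets, and the reverse held for 0 of the 17, beside 2.35%. By percentile rank the arrays overlapped for 222081_at, with A3 at 22.1 and B1 and B3 at 22.9 and 24.3. The medians of this probe set were 41.6 on A and 8.88 on B. For 222080_s_at the medians were 168 on A and 36.0 on B, and for SIRT4 220047_at 55.5 and 19.5, with overlap in both. The arrays differ in the cycles before staining as well as in being different hybridizations, and these cannot be told apart here.

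The spread over scans was wide where the signal was low. The 9 sirtuin probe sets below 50 on C1 had an SD of 0.82 to 1.48 log2 units over the 18 scans, with a median of 1.25, and their highest signal was 7.98 to 29.0 times the lowest. The 8 probe sets at 50 or more had an SD of 0.27 to 1.18 with a median of 0.35. Over all probe sets, grouped in deciles of the C1 signal, the median SD ran from 1.35 in the lowest to 0.31 in the highest decile. SIRT3 221562_s_at stood apart from its decile, with an SD of 1.18 against a median of 0.50, while SIRT5 229112_at had 0.82 against 1.20. Probe sets 222080_s_at and 1569938_at, the readings that differed most between the series, had an SD of 1.41 and 1.48 where the median of their decile was 1.16.

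**Figure D5:**
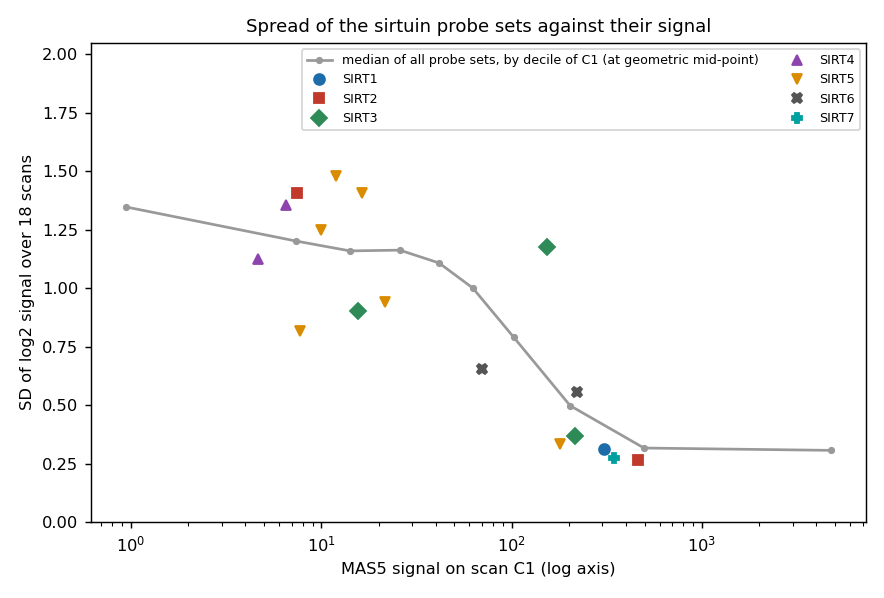
SD of the log2 signal over 18 scans (vertical axis) against the signal on C1 (log axis) for the 17 sirtuin probe sets, coloured by gene; the grey line joins the median SD of all probe sets in each decile of C1. Of the 5 readings above 200 on C1, 4 lie between 0.27 and 0.37 and 233179_x_at of SIRT6 at 0.56, while 221562_s_at of SIRT3, at 153 on C1, lies far above the line with 1.18.

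Genes of the surrounding pathway were described through 6 lists, on NAD+ synthesis and salvage, NAD+ use and breakdown, regulators of SIRT1, and nuclear, mitochondrial and cytosolic targets of sirtuins, each gene by its brightest probe set on C1. Of their 88 genes 84 were measured, and 0 passed as higher and 0 as lower in any of the 4 limma comparisons. Of all 54675 probe sets, 0 passed in the washing comparisons. With re-labelling 0.294% of all passed as higher and 0.541% as lower, so the counts of 0 are not particular to these lists. Among the 3 brightest genes of their lists were NAMPT, the rate-limiting enzyme of NAD+ salvage, with 6253 on C1, PARP1, a poly-ADP-ribose polymerase that consumes NAD+, with 1005, XRCC6, the Ku70 protein that SIRT1 deacetylates, with 6358, SDHA of respiratory complex II, a SIRT3 substrate, with 3645, and ACLY, the ATP citrate lyase, with 10978. IDO1, which starts the breakdown of tryptophan towards NAD+, had 9410. In the first series the median washing change was -0.16 for NAD+ synthesis, -0.04 for NAD+ use, 0.28 for regulators of SIRT1, -0.07 for nuclear, 0.08 for mitochondrial and 0.74 for cytosolic targets, beside -0.45 for all probe sets and -0.47 for the sirtuins. These lists take the brightest probe set of each gene, while the 17 sirtuin probe sets include dim ones. NAMPT changed by 0.70 (SE 0.27, limma adjusted p = 0.287) and ACLY by 1.45 (SE 0.27, limma adjusted p = 0.192). With re-labelling the list medians lay between -0.14 and 0.07.

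The patterns of the brightest readings over the 18 scans, each scan centred on its median, were matched to those of all other genes by Pearson's r. The most alike were CDC16 for SIRT2 (r = 0.97), ID2 for SIRT1 (r = 0.95), ULK3 for SIRT7 (r = 0.94), CLIP4 for SIRT3 (r = 0.87), CCDC15 for SIRT6 (r = 0.85) and LINC00458 for SIRT4 (r = 0.83). For SIRT5 219185_at they were UTRN (r = 0.91), MET (r = 0.89) and CC2D2A (r = 0.85). These values describe repeated scans of 3 arrays with 1 RNA, picked as the highest of all genes, and share arrays, washing steps and scaling.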

How the data were processed

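RNA of FTC-133 was hybridized to 3 arrays, and the 18 scans were mapped to array, series and additional cycles by their titles. The authors summarised the probe intensities of each probe set into MAS5 signals (version not given in the sources used here), and the deposited intensity values had been scaled per scan to 1 trimmed mean, which was checked after dropping 2% of probe sets at each end. A loss of signal common to all probe sets is removed by this scaling. Detection calls were not used, and 0 pairs of scans were identical.

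Probe sets were named through the platform annotation, with 41097 of 54675 carrying 1 symbol. Log2 signals without offset or filter were fitted with limma 3.58.1 in R 4.3.3 and Benjamini-Hochberg adjustment over all probe sets. Washing (17 against 0 additional cycles) used the scans of arrays A and B in 1 series, with 4 levels of cycles and a block for the array, since the same array was scanned at each step. Re-labelling used 9 pairs of scans as a block. p-values measure the spread between scans of 1 RNA, which is technical. Other values were computed in Python 3.11.15 with pandas 2.3.3 and numpy 2.4.6.

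The members, the pathway lists and the rules were chosen with earlier results of these data known. All sirtuin probe sets were named. Tested washing changes are printed for the probe set of each gene brightest on C1 and for those with an unadjusted p under 0.05. Of each list, genes named are among the 3 brightest on C1. The fits were also run on simulated data with independent noise on each scan. Real scans are repeated readings of the same arrays, so the simulation cannot give an error rate for them. The alternatives tried were quantile normalization, median centring, anchoring on the 100 probe sets brightest on C1, 16 added to each signal, no replicate block, a filter keeping the brighter 27337 probe sets, robust moderation with a variance trend, cycles as a line, the array as the unit, and leaving out scans, pairs or array C. Columns of scans left unmapped numbered 0.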

Additional observations from a re-analysis of the deposited data

Results flagged for a closer look

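For 3 sirtuin probe sets the washing change had 1 sign on both arrays in the first series and the opposite sign on both arrays in the second, which held for 5.84% of all probe sets. Minus the median change of each run, SIRT4 220047_at kept this pattern and the other 2 did not, while SIRT7 218797_s_at took it on with changes of -0.043 and -0.025 in the first and 0.072 and 0.53 in the second series (7.16% of all probe sets). SIRT4 220047_at had log2 changes of -1.87 on A and -2.69 on B in the first series and of 0.60 and 0.01 in the second, and the difference between the series was 2.585 (SE 0.64, limma adjusted p = 0.579). SIRT4 222248_s_at had -0.14 and -1.41, then 0.08 and 0.63, with a difference of 1.135 (SE 1.28, limma adjusted p = 0.877). SIRT3 221562_s_at had 0.62 and 0.42, then -0.27 and -0.16, with a difference of -0.734 (SE 0.76, limma adjusted p = 0.863). The difference itself was tested in each case by the interaction fit, and it passed the threshold in 0 of the 3. SIRT4 220047_at and 222248_s_at had C1 signals of 6.54 and 4.66, and the difference of 220047_at rested on scans at 5.79 to 37.2 in the first series at 0 and 17 cycles.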

How the results depend on the processing

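Anchoring on the 100 brightest probe sets, which assumes that these lost nothing, moved the counts most. With it 29877 of 54675 probe sets passed in the first series, among them 10 of the 17 sirtuin readings. In the second series 23406 of 54675 passed, among them 6 of the 17, and with re-labelling 11521 passed. The median anchored change in the first series was -1.83 over the 17 and -1.80 over all. In the second series these medians were -1.01 and -1.13, so the counts of 10 and 6 are not particular to the sirtuins. A variance trend with robust moderation passed 2615, 1546 and 778 probe sets for washing in the first series, the second series and their difference, with 0 sirtuin probe sets in each, and 1834 with re-labelling. For the first series the brighter probe sets alone gave 705 and a line over cycles 1165. Re-labelling passed 457 probe sets as reported, 967 with an offset of 16, 245 among the brighter probe sets, 735 without array C, 123 without the pairs as a replicate block and 0 with the array as the unit. Without the array as a replicate block 0 probe sets passed for washing, as with it. Leaving out 1 pair gave 311 passing probe sets without A1 and A5, 33 without A2 and A6, 29 without A3 and A7, 104 without A4 and A8, 65 without B1 and B5, 60.0 without B2 and B6, 89 without B3 and B7, 85 without B4 and B8 and 735 without array C, and leaving out 1 scan gave 0 for washing in every case. The cause of these differences was not tested.

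Median centring and anchoring shift all probe sets of a scan alike, whereas quantile normalization moves them by differing amounts. In the first series quantile normalization took SIRT4 220047_at from -2.28 to -1.19 and SIRT2 220605_s_at from 0.07 to 0.52. Median centring gave 4 of the 17 sirtuin probe sets the other sign in the first and 4 in the second series, quantile normalization 4 and 5, and anchoring 4 and 8, with all 17 then below 0. Of the 8 readings whose tested changes are printed, SIRT5 229112_at kept its sign in every setting run. In the first series SIRT1 became 0.038 with median centring, SIRT3 49327_at 0.28 with median centring and 0.15 with quantile normalization, SIRT5 219185_at 0.35 and 0.28, and SIRT2 220605_s_at -1.29 when anchored. Median centring and quantile normalization gave, in the second series, 0.17 and 0.055 for SIRT3 49327_at and 0.10 and 0.12 for SIRT6 233179_x_at. Anchoring there gave -0.73 for SIRT2 220605_s_at, -0.58 for SIRT4 220047_at, -0.87 for SIRT5 219185_at and -0.83 for SIRT7, and a line over cycles gave -0.0054 for SIRT4 220047_at and -0.057 for SIRT5 219185_at. Leaving out 1 scan in turn, the first-series changes ran from -0.19 to 0.32 for SIRT2 220605_s_at, from -0.56 to 0.34 for SIRT5 219185_at and from -1.86 to 0.083 for SIRT6 233179_x_at. In the second series they ran from -0.38 to 0.13 for SIRT3 49327_at, from -0.28 to 0.89 for SIRT4 220047_at, from -0.19 to 0.23 for SIRT5 219185_at, from -0.48 to 0.094 for SIRT6 233179_x_at and from -0.17 to 0.29 for SIRT7. None of these values had passed the threshold as reported. The 2 arrays with both ends of the washing range, and the signals under 50 of 9 probe sets, limit what these data can resolve.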
